A study of Mus musculus with 7 samples.

Results

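The peaks of HDAC1, a histone deacetylase that takes acetyl marks off histones as part of corepressor complexes, are described here across the Hoxb cluster of the mouse. The members are the 10 Hoxb genes, Hoxb1 to Hoxb9 and Hoxb13. A peak was taken when it overlapped, by at least 1 bp, the gene body of a member with 10 kb added on each side. This gave 12 peaks of the 15347 in the HDAC1 list. No measured value other than position chose the peaks. The members themselves were chosen with earlier results of these data known.

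The experiment was ChIP-seq, in which an antibody against a protein brings down the fixed DNA it is bound to. There were 4 HDAC1 ChIP samples and 3 input samples, the latter sheared chromatin without antibody. All were forelimb and hindlimb buds pooled together from Swiss Webster mice at E11.5 (40 to 44 somites), with 3 litters given in the labels of each group and no mutation or treatment in either group. The authors deposited 1 list of peaks for the whole experiment, giving chromosome, start and end (mm10), ordered by rank. The deposited list holds no read number, height or fold enrichment. The study describes a fold change and a false discovery rate for each peak in its source data, and these were not used here. The depth behind a peak is not known from the list, and no value below has a replicate error or a test. In tissue of mixed cell types, a site bound weakly in many cells and a site bound strongly in few cells cannot be told apart.

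Hox genes encode homeodomain transcription factors that give cells their position along the body axis. They lie in 4 clusters, and the order of genes along a cluster follows the order in which they are used from head to tail, with low paralogue numbers first. The 5′ genes of the Hoxa and Hoxd clusters pattern the limb along its length, while the Hoxb cluster is best known for its work in the hindbrain, trunk and blood-forming cells. Polycomb and histone acetylation hold parts of each cluster silent or active, and HDAC1 removes the latter mark.

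The 12 peaks lay in 5 groups, and are numbered 1 to 12 in the direction from Hoxb13 to Hoxb1, which is also the direction of transcription of all 10 genes. Peaks 1 and 2 were at Hoxb9, peak 3 at the end of Hoxb8, peak 4 between Hoxb5 and Hoxb4, peaks 5 to 7 in Hoxb4, and peaks 8 to 12 from Hoxb2 across the start of its antisense neighbour Hoxb3os. The first and the last peak were 83700 bp apart from end to end. The peaks covered 4050 bp, or 2.09%, of the 193941 bp from 10 kb before Hoxb13 to 10 kb after Hoxb1 (chr11:96184316-96378256).

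**Figure D1:**
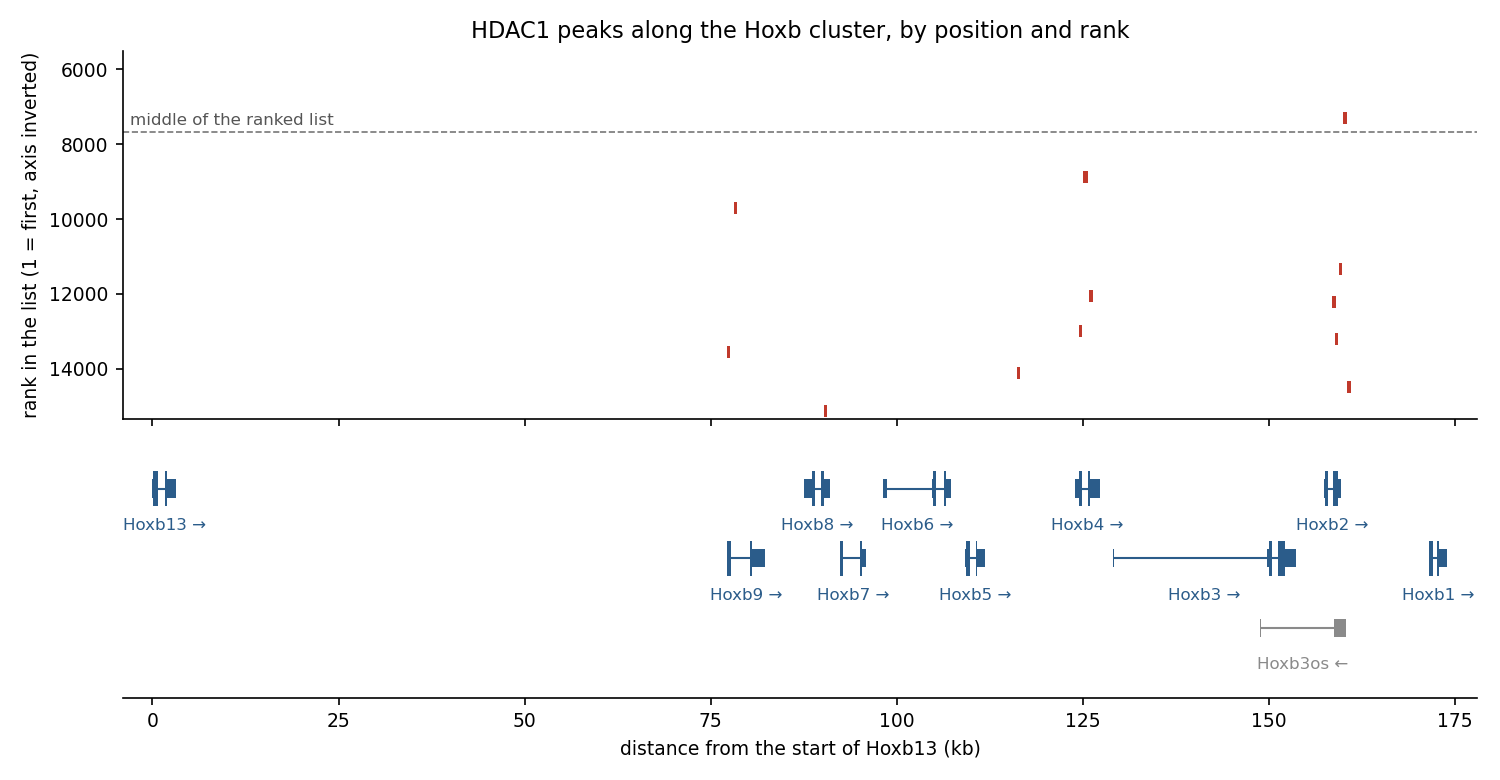
Position of the 12 HDAC1 peaks (red, drawn wider than to scale so that they can be seen) as the distance in kb from the start of Hoxb13, against rank in the list on an inverted axis, with the 10 Hoxb genes (blue, thick boxes coding) and the antisense gene Hoxb3os (grey) below. The peaks stand in 5 places between Hoxb9 and Hoxb2, none is near Hoxb13 or over Hoxb1, and 1 of 12 is above the dashed line at rank 7674.

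Sequence from the peaks is shown for some of those that the results turn on. It was read from the GRCm38 reference, and untranslated regions were left out. The first set shows how the peaks differ in CpG, the dinucleotide that is methylated in mammals and kept unmethylated in CpG islands, and CG is in capitals. Peak 2 (chr11:96272550-96272699, plus strand) was the shortest and lay in the intron of Hoxb9, and peak 4 (chr11:96310600-96310799, plus strand) and peak 12 (chr11:96354950-96355149, plus strand) were the ones outside any gene. From peak 11, the best ranked, the 300 bases at its right end are given (chr11:96354450-96354749, minus strand), in which Hoxb3os begins at base 59.
peak 2: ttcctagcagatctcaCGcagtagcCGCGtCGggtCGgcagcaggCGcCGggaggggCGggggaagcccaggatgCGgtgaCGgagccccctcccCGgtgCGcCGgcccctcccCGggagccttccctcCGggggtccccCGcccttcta
peak 4: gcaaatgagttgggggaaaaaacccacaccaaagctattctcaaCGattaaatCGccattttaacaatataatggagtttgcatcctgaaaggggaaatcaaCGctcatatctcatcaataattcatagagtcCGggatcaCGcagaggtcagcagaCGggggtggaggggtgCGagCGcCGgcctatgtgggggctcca
peak 11: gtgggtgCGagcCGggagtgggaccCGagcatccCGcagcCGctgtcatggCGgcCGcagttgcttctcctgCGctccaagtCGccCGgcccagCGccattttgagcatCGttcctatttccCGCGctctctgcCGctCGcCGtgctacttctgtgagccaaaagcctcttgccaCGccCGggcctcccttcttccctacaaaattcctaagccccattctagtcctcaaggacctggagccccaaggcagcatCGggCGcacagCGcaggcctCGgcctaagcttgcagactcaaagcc
peak 12: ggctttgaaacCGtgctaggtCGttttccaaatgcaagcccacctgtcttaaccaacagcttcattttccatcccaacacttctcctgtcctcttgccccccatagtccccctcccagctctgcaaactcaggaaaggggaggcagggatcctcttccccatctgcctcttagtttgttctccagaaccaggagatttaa
Peak 2 held 16 CpGs in 150 bases. Peak 12 held 2 in 200 and peak 4 held 9 in 200.

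Another sequence shows a peak that touches a homeobox, the 180 bases that encode the DNA-binding homeodomain. Homeobox bases are in capitals. Peak 8 in Hoxb2 is chr11:96352900-96353149, on the plus strand.
peak 8: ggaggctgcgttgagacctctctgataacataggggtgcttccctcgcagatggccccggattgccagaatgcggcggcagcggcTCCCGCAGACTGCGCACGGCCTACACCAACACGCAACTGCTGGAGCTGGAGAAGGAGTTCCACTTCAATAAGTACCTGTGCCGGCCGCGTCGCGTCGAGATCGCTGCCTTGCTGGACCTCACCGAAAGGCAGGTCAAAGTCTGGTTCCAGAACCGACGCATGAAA
Peak 8 held 165 of the 180 homeobox bases of Hoxb2 (91.7%), all but its last ones. Peak 7 held the last 86 of the 180 of Hoxb4 (47.8%), and the rest lay in the 100 bp between peaks 6 and 7. No base of the homeobox was covered in the other 8 genes, where the nearest peak was from 297 bp away in Hoxb8 to 75251 bp away in Hoxb13. The homeobox was looked at after the positions of the peaks had been seen.

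Taken by gene, 8 of the 10 members had a peak in the gene body or within 10 kb, where 53.8% of all 21938 protein-coding genes did. In the gene body itself it was 4 of 10 members, Hoxb9, Hoxb8, Hoxb4 and Hoxb2, against 45.1% of all genes. A peak covered the main start site of 1 of 10, Hoxb9, against 28.6% of all genes. Thus the share of Hoxb genes with a peak was above the share of all genes only when the flanks were counted, and neighbouring genes share flanks. Since the genes are close together, 9 of the 12 peaks lay in the windows of 2 members and peaks 3 and 4 in those of more, so that the 12 peaks were counted 26 times over the members.

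Hoxb13, active in the tail end of the body and in the prostate, had no peak. It stands apart from the rest, 74009 bp before Hoxb9 (chr11:96194316-96197447), and the nearest peak began 77134 bp downstream of its start, at Hoxb9. The last peak before that stretch was 700 bp long and at the start of Atp5g1, a gene of the mitochondrial ATP synthase. The 195850 bp from there to peak 1 were free of peaks, with Hoxb13 and its outer neighbour Ttll6 inside. A gap of this length or more followed 18.8% of all peaks that had a gap after them, and the median gap was 45950 bp.

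Hoxb9, used in the thorax with its paralogues, had peaks 1 and 2 in its body (chr11:96271457-96276595), which covered 593 of its 5139 bp. Peak 1 (chr11:96271450-96271899, 450 bp) ranked 13551 and was the only Hoxb peak over a member's start site. It began 7 bp before the gene and covered 85 bp of the 5′ untranslated region and 358 bp of coding sequence, all in exon 1. Peak 2 (150 bp) ranked 9694 and lay wholly in intron 1, 1093 bp downstream of the start. The better ranked of the pair was thus the shorter, inside the gene and not at its start.

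Hoxb8, which acts in the spinal cord and in blood cells, had 1 peak in its body (chr11:96281905-96285315). Peak 3 (chr11:96284650-96284849, 200 bp) lay wholly in the 3′ untranslated region in exon 2, 2745 bp downstream of the start. With rank 15124 it was the last of the 12, at 98.5% of the way through the list. It was also the nearest peak to the start of Hoxb7, 1774 bp upstream of it, so that Hoxb8 and Hoxb7 cannot be told apart as the gene it belongs to.

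Hoxb7, Hoxb6 and Hoxb5 had no peak in the body. Hoxb7 (chr11:96286623-96290162) had peak 3 alone in its window. Hoxb6 (chr11:96292476-96301569) had peaks 3 and 4 in its window, 7627 and 9031 bp from its body. Hoxb5 (chr11:96303336-96306121), which takes part in placing the forelimb bud, had peak 4 alone, 4479 bp beyond its end. In the stretch from Hoxb7 to Hoxb5 there was thus no peak, and the gap between peaks 3 and 4 was 25750 bp.

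Peak 4 (200 bp, rank 14103) was outside every annotated gene, 7088 bp downstream of the start of Hoxb5 and 7468 bp before Hoxb4. The antisense gene Hoxb5os begins 3690 bp from it. The peak had a GC content of 49.0%, and none of its bases was masked as a repeat in the reference.

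Hoxb4, known for expanding blood stem cells, had 3 peaks in its body (chr11:96318267-96321638), and with 44.5% of the body covered it was the most covered member. Peak 5 (250 bp, rank 12995) lay within the coding part of exon 1, 583 bp downstream of the start. Peak 6 (chr11:96319350-96320049) was 700 bp long, the longest of the 12, ranked 8879, and held 680 of the 806 bp of intron 1 and the first 20 bp of exon 2. Peak 7 (chr11:96320150-96320699, 550 bp, rank 12062) lay in exon 2, with 176 bp of coding sequence and 374 bp of the 3′ untranslated region. Gaps of 250 and 100 bp separated the 3 peaks. None reached the start of the gene, so that the covered part of Hoxb4 ran from within exon 1 to within the 3′ untranslated region.

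Hoxb3 is the longest member, with 24605 bp (chr11:96323326-96347930), and acts in the hindbrain. Its window held 8 peaks, more than any other member's, and yet its body held none. Of the 8, peaks 5 to 7 lay before it in Hoxb4, the nearest 2627 bp from its start, and peaks 8 to 12 lay beyond its end, the nearest 4970 bp away, with peaks 8 to 11 in Hoxb2 or Hoxb3os and peak 12 outside any gene. The 32200 bp between peaks 7 and 8 were the longest gap within the cluster's peaks, and the whole body of Hoxb3 lay in it.

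Hoxb2, which acts in the hindbrain and in facial motor neurons, had peaks 8 to 10 in its body (chr11:96350525-96354012), which covered 813 bp or 23.3%. Peak 8 (250 bp, rank 12212) began 1269 bp downstream of the main start, with 50 bp of the intron and 200 bp of coding sequence in exon 2. Peak 9 (chr11:96353250-96353549, 300 bp, rank 13206) lay wholly in the coding sequence of exon 2. Peak 10 (chr11:96353750-96354099, 350 bp, rank 11341) held 263 bp of the 3′ untranslated region and ran on past the end of the gene. The 3 peaks thus followed exon 2 of Hoxb2 and left its start free.

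Peaks 11 and 12 came next, 288 and 938 bp beyond the end of Hoxb2. Peak 11 (chr11:96354300-96354749, 450 bp) ranked 7304, the best of the 12, and covered the start of Hoxb3os, a noncoding RNA transcribed from the opposite strand through Hoxb2 and into Hoxb3 (chr11:96343072-96354691). The 58 bp at its right end lay before that start and the rest in an exon of Hoxb3os. Peak 12 (200 bp, rank 14488) lay 200 bp farther on and outside any gene. Peaks 8 to 11 all overlapped the body of Hoxb3os and covered 1292 bp of it, so that at peaks 8 to 10 Hoxb2 and Hoxb3os cannot be told apart.

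Hoxb1, which gives the fourth segment of the hindbrain its identity, had no peak (chr11:96365752-96368256). Peak 12 was the nearest, 10603 bp upstream, so that Hoxb1 was without a peak by the width of the flank. The other pair near that limit was Hoxb8 and peak 1, 10006 bp apart and not counted, and the farthest pair counted was Hoxb8 and peak 2, 9206 bp apart. Beyond peak 12 no peak followed for 421950 bp, to the start of Snx11, a sorting nexin gene. Skap1, the outer neighbour of Hoxb1, lay in this stretch, and 8.49% of gaps in the list were as long or longer.

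**Figure D2:**
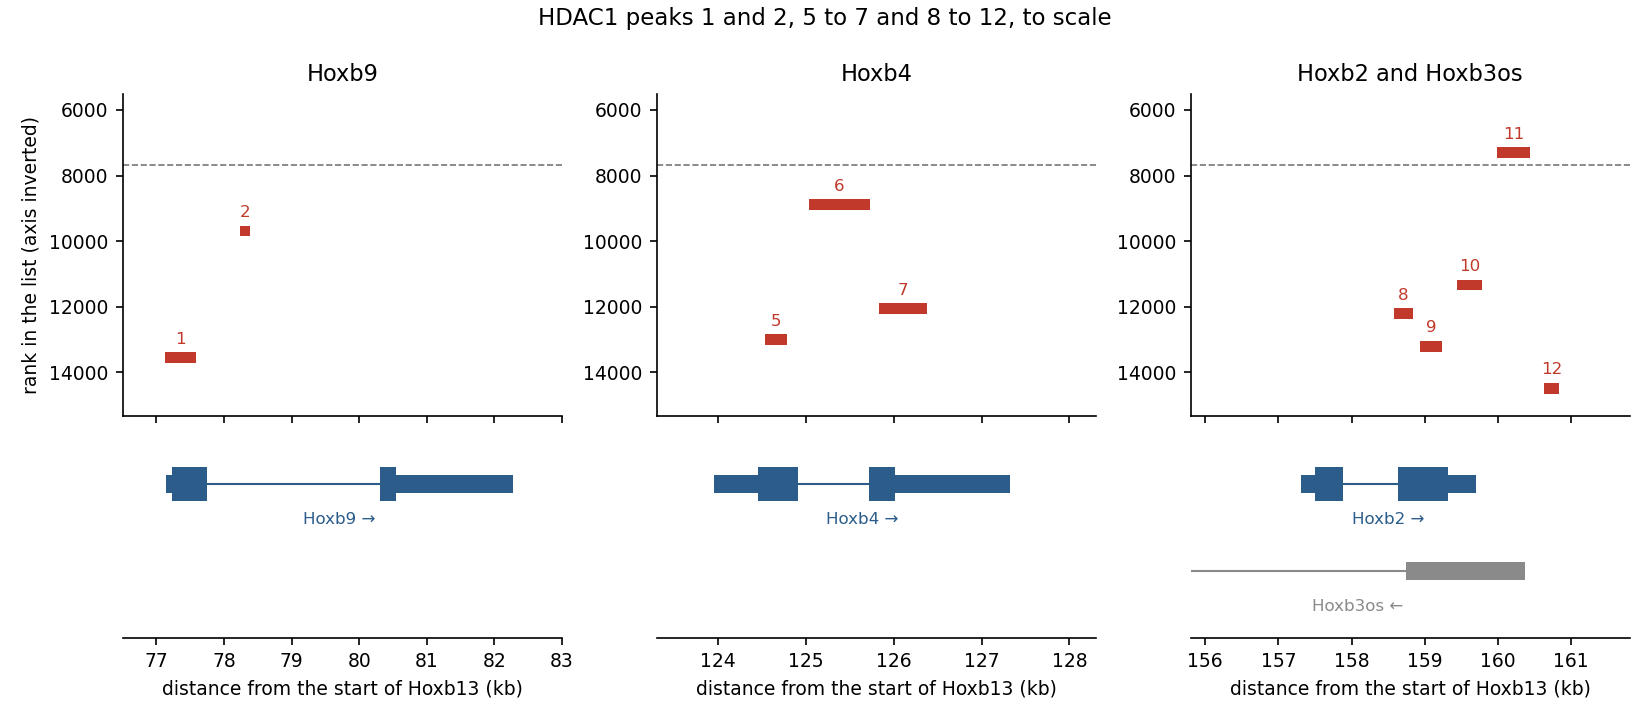
The 3 groups of peaks at Hoxb9, Hoxb4 and Hoxb2 with Hoxb3os, to scale, with distance from the start of Hoxb13 in kb on the lower axis and rank on an inverted axis (red bars with the peak's number; thick blue boxes are coding, thin ones untranslated, grey is noncoding exon; the dashed line is rank 7674). Peak 1 is at the start of Hoxb9, whereas peaks 5 to 7 and 8 to 10 lie downstream of the starts of Hoxb4 and Hoxb2, and peak 11 is at the right end of Hoxb3os, where that gene begins.

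Besides the members, the interval holds 9 annotated genes, all of them noncoding RNAs or pseudogenes. Hoxb3os was the only one of the 9 with a peak in the body. The microRNA genes of the cluster, Mir10a before Hoxb4 and Mir196a-1 before Hoxb9, had none, and the nearest peaks were 1576 and 6185 bp from them. Both microRNAs are known to act on Hox transcripts.

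By base, the 4050 bp under the 12 peaks comprised 1304 bp of coding sequence, 922 bp of untranslated region, 529 bp of noncoding exon, 830 bp of intron and 465 bp outside genes. Each base was counted once over all annotated transcripts, under the first of these that applied. The 50 bp of peak 8 in the intron of Hoxb2 thus counted as noncoding exon of another transcript. Coding sequence was touched by 6 peaks and untranslated regions by 4, and the same shares over all peaks were not computed. A main start site of a protein-coding gene was covered by 1 of the 12 peaks, against 37.5% of all peaks in the list. In the other Hox clusters it was 7 of 24 peaks (Hoxa), 2 of 27 (Hoxc) and 9 of 31 (Hoxd). Between 2 kb upstream and 1 kb downstream of such a start were 3 of the 12, against 65.3% of all peaks. These were peaks 1, 3 and 5, the last with Hoxb4 and peak 3 with Hoxb7. The other clusters had 14 of 24 peaks (Hoxa), 17 of 27 (Hoxc) and 18 of 31 (Hoxd) in this range. A description of 12 peaks by counts does not show that they differ from the rest of the list.

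Most of the peaks stood close together. Another peak no more than 1000 bp away was found for 10 of the 12, all but peaks 3 and 4, against 36.3% of all peaks. The other Hox clusters shared this, with 20 of 24 peaks at the Hoxa, 21 of 27 at the Hoxc and 27 of 31 at the Hoxd genes. In 7 of the 11 gaps between consecutive peaks the distance was 650 bp or less, with 100 bp as the shortest. Over the interval there were 6.19 peaks per 100 kb, while the whole of chromosome 11 (122082543 bp) held 1221 peaks. The Hoxa, Hoxc and Hoxd intervals, taken in the same way, held 19.2, 19.9 and 26.5 peaks per 100 kb. Counting the 74009 bp between Hoxb13 and Hoxb9, almost free of peaks, lowers the Hoxb rate.

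Lengths ran from 150 to 700 bp with a median of 275 bp, while the median of all peaks was 450 bp (quartiles 300 and 800 bp). All lengths in the list were multiples of 50 bp. Ranks ran from 7304 to 15124 with a median of 12604. Of the 12 peaks, 11 came after rank 7674, the middle of the list, 8 came at rank 11511 or later, in its last 3837 peaks, and none was in its first 3837. Among those last 3837 peaks the median length was 250 bp (quartiles 200 and 350 bp), close to that of the 12.

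Base composition varied widely among the 12. The GC content was 78.4% in peak 5, 75.3% in peak 2, 70.0% in peak 1 and 69.7% in peak 9, all above the upper quartile of all peaks (68.7%). It was below the lower quartile (54.6%) in 6 peaks, with 34.0% in peak 10, 49.0% in peak 4, 49.3% in peak 6, 51.5% in peak 12, 52.9% in peak 7 and 54.5% in peak 3. The median of the 12 was 57.5% against 62.9% in the list. The ratio of observed to expected CpG was highest in peak 1, over the start of Hoxb9, and lowest in peaks 12 (0.17) and 6 (0.35). Its median in the 12 was 0.73, against 0.76 in the list and 0.56 among the last 3837 peaks (quartiles 0.29 and 0.79). The share of bases masked as repeats had a median of 4.11% in the 12, against 5.25% in the list. It was 34.0% in peak 7, 31.4% in peak 6, 27.4% in peak 10 and 25.5% in peak 3, above the upper quartile of all peaks (10.7%). Peaks 1, 2, 4, 5, 9 and 12 had no masked base. Reads from repeats are harder to place, and the part of this in the calls was not tested.

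**Figure D3:**
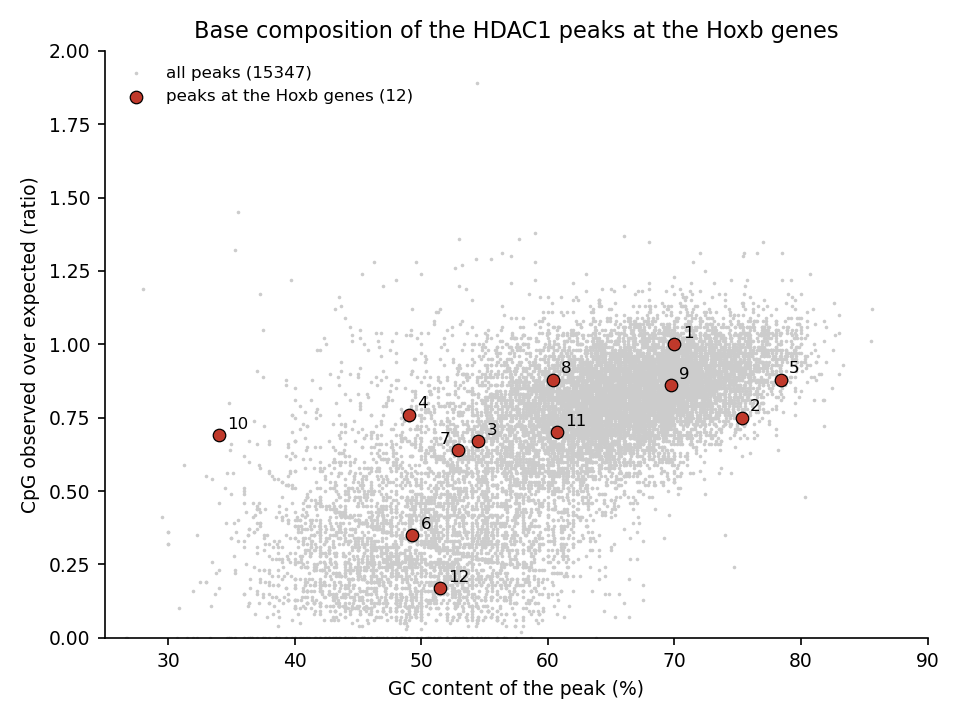
GC content in percent against the ratio of observed to expected CpG for the 12 peaks at the Hoxb genes (red, numbered) and all 15347 peaks (grey). Peaks 1, 2, 5 and 9 have a GC content above 68.7%, whereas peaks 6 and 12 have the lowest CpG ratios, and peak 10 the lowest GC content.

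The other 3 Hox clusters were treated in the same way. There were 24 peaks at the Hoxa, 27 at the Hoxc and 31 at the Hoxd genes, against 12 at the Hoxb genes. Peaks covered 46.9% of the Hoxa interval, 32.0% of the Hoxd and 10.5% of the Hoxc interval, against 2.09% of the Hoxb interval. The 74009 bp between Hoxb13 and Hoxb9 make the Hoxb interval the longest, and within gene bodies alone the shares were 55.0% (Hoxa), 38.1% (Hoxd), 13.4% (Hoxc) and 5.09% (Hoxb). A peak covered the main start of 9 of 11 Hoxa, 8 of 9 Hoxd, 2 of 9 Hoxc and 1 of 10 Hoxb genes. Hoxb was the lowest of the 4 clusters in each of these measures, and since each is a single value per cluster the differences were not tested.

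The longest peak was 35050 bp in Hoxa, 9050 bp in Hoxd, 2300 bp in Hoxc and 700 bp in Hoxb. Median lengths were closer, with 550 bp in Hoxa, 400 bp in Hoxd, 350 bp in Hoxc and 275 bp in Hoxb. The best rank was 5 in Hoxa, 14 in Hoxd, 1205 in Hoxc and 7304 in Hoxb. The median rank was 7384 in Hoxa, 10654 in Hoxd, 9594 in Hoxc and 12604 in Hoxb. In the first 3837 peaks of the list were 8 of the Hoxa, 10 of the Hoxd, 3 of the Hoxc and 0 of the Hoxb peaks. In the last 3837 were 7 of the 24 Hoxa, 13 of the 31 Hoxd, 8 of the 27 Hoxc and 8 of the 12 Hoxb peaks. A homeobox was covered in whole in 6 of 11 Hoxa, 6 of 9 Hoxd and 2 of 9 Hoxc genes and in none of the Hoxb genes. Counting also those covered in part, it was 6 of 11 Hoxa, 6 of 9 Hoxd, 2 of 9 Hoxc and 2 of 10 Hoxb genes. The shortest peaks were alike in length, with 150 bp in Hoxb, Hoxc and Hoxd and 200 bp in Hoxa.

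**Figure D4:**
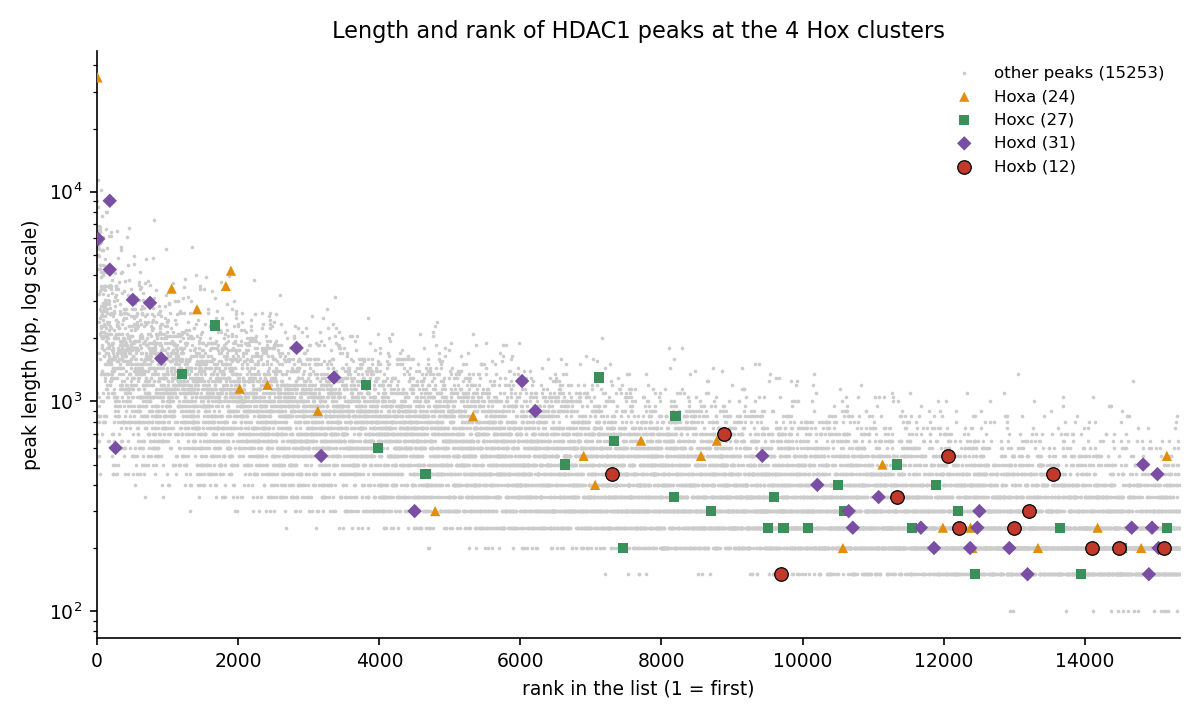
Rank in the list (1 is first) against peak length in bp (log scale) for all HDAC1 peaks, with those at the Hoxb (red circles, 12), Hoxa (24), Hoxc (27) and Hoxd (31) genes marked and the rest in grey. The Hoxb peaks sit from rank 7304 to 15124 and at 700 bp or less, whereas the other clusters also have peaks near the start of the list, up to 35050 bp long.

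Paralogues are the genes at the same place in different clusters. The 10 Hoxb genes have 21 of them, of which 15 had a larger share of the body covered than the Hoxb gene, 4 a smaller share and 2 the same. In group 9, Hoxa9 and Hoxd9 were covered over 100% of the body and Hoxc9 over 30.7%, while Hoxb9 was covered over 593 of 5139 bp. In group 13, Hoxa13 was covered over 92.2% and Hoxd13 over 80.2%, while Hoxc13 and Hoxb13 had no peak in the body. In groups 2, 4 and 8 a paralogue was less covered than the Hoxb gene. Hoxb8 (5.86%) lay between Hoxd8 (89.9%) and Hoxc8, which had no peak in the body. Hoxb4, at 44.5%, lay between Hoxa4 (50.6%) and Hoxd4 (12.3%), with Hoxc4 at 0.837%. Hoxb2 (23.3%) was close to its single paralogue Hoxa2 (22.8%), and Hoxb1 had no peak in the body, against 21.7% of Hoxd1. Hoxb3, Hoxb5, Hoxb6 and Hoxb7 had no bases covered, and each of their paralogues had some, up to 92.5% in Hoxa7.

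**Figure D5:**
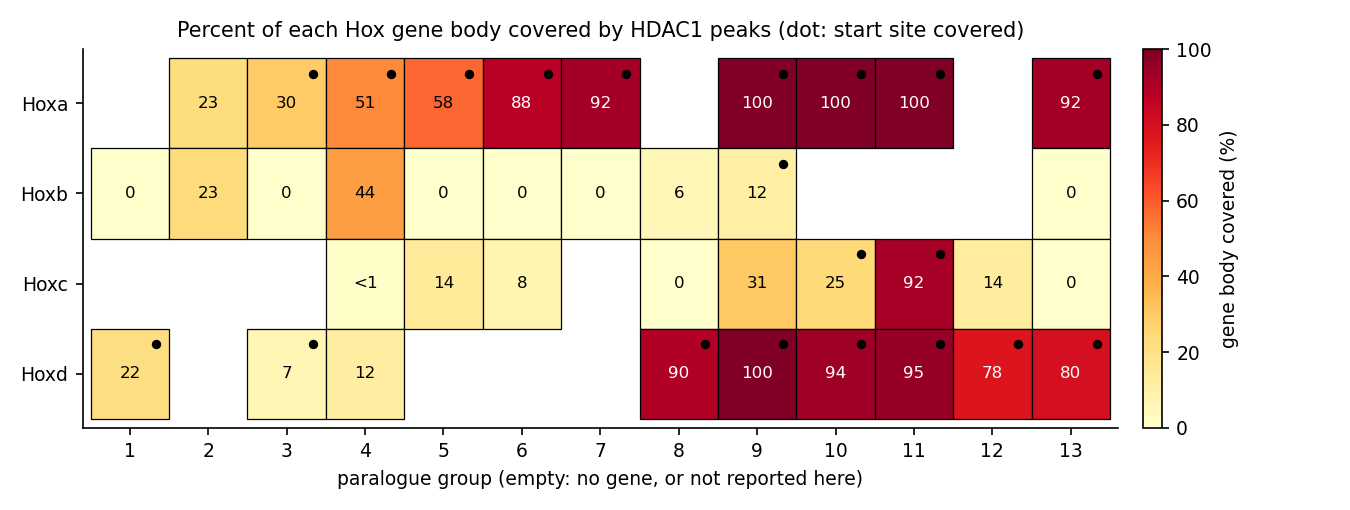
Percent of each Hox gene body covered by HDAC1 peaks, by cluster (rows) and paralogue group (columns), with a dot where a peak covers the main start site. Hoxb4 (44.5%) and Hoxb2 (23.3%) are the most covered in the Hoxb row, in which only Hoxb9 has a dot, whereas groups 9 to 13 of Hoxa and Hoxd are covered over 77.5% or more.

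The letters of the peaks were searched on both strands for 3 motifs, with no mismatch allowed. A site that departs from the searched letters was not counted. The GLI motif GACCACCCA, the site of the Hedgehog transcription factors, was in none of the 12 peaks and nowhere in the 193941 bp interval. It was in the central 300 bp of 0.326% of all peaks and in 0.253% of 32851 promoters of the same length. The motif TGATNNAT of PBX and HOX proteins bound as a pair occurred 64 times in the interval and in none of the 12 peaks (3.87% of all peaks in their central 300 bp, 8.85% of promoters). With 2.09% of the interval under the 12 peaks, their lack of a match does not set them apart. The DR5 retinoic acid response element occurred 3 times in the interval and not in a peak (0.0977% of all peaks, 0.0974% of promoters). One match was in Hoxb3, 11647 bp from the nearest Hoxb peak, and another 7024 bp downstream of the start of Hoxb1, 17626 bp from the nearest.

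Genes whose products work with or on the Hoxb genes were looked up in the same list. Of 9 genes of the TALE homeodomain cofactors, which bind DNA beside HOX proteins, 8 had a peak in the body or within 10 kb (53.8% of all coding genes did) and 6 had the main start covered (28.6% of all). The peak over the start of Meis1 was 7300 bp long and ranked 807. Meis3 had no peak. Of 13 known regulators of Hox genes, 11 had a peak in the body or within 10 kb and 9 had the start covered, beside the same 53.8% and 28.6%. Ezh2, the Polycomb methyltransferase, had a 1700 bp peak of rank 127 at its start, and Kmt2a, the trithorax methyltransferase that maintains Hox expression, a 2000 bp peak of rank 152. The retinoic acid receptor gene Rara had 13 peaks, the best of rank 88, none of them over its main start. Cdx2 and Cdx4, which activate Hox genes in the trunk, had none. Over both lists, 19 of 22 genes had a peak in the body or within 10 kb, and the best of these peaks ranked before 7304, the best rank at the Hoxb genes, in 18 and after it in 1, Cdx1 (rank 11790). Of the 15 peaks over a start, 13 ranked before 7304, and those at Meis2 (rank 9691) and Egr2 (rank 12639) after it. Rank 7304 lies 47.6% of the way through the list, and a gene with several peaks enters with its best. The same counts over all coding genes were not made, so these do not set the listed genes apart.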

How the data were processed

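HDAC1 ChIP-seq was done by the authors on 4 ChIP and 3 input samples of E11.5 mouse limb buds. Reads were aligned with Bowtie2 2.2.5 (submitters' processing notes) to mm10, and CisGenome was used by the authors to call peaks (FDR below 0.05). They deposited coordinates (chromosome, start and end of 15347 peaks) in rank order, with no counts or signal per sample. Coordinates were read as counted from 1 with both ends included. Genes came from GENCODE M21, with the main transcript the APPRIS principal one, and sequence from GRCm38. Gaps between peaks are the bases between them, and other distances are differences of coordinates. With 1 list and no value per sample, no test was run, and the list does not give the depth per peak. All 10 members were named, and other genes only as neighbours, paralogues or members of the fixed lists. The members and lists were chosen with earlier results of these data known. On simulated data, 1000 of 1000 overlaps, 1000 of 1000 coverages and 200 of 200 planted motifs were recovered. Python 3.11.15, numpy 2.4.6 and matplotlib 3.10.9 were used. Some items are not reported here.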

Additional observations from a re-analysis of the deposited data

How the results depend on the processing

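The number of Hoxb genes with a peak (8) was 4 without a flank, 5 with a flank of 2 kb and 3 over the coding span without a flank. It was 8 with the main transcript's span or at least 50% of the peak inside. With a flank of 20 kb, chosen after seeing the data, it was 9. In the first 7674 ranks, 2 genes and 1 peak (450 bp) remained, with a start covered in 0 genes and a median length of 450 bp; in the first 3837 ranks, genes, peaks, bases and covered starts were all 0, and no median could be given. The 12 peaks were 5 after merging those no more than 1000 bp apart, with a median length of 1250 bp. Without a flank, 9 peaks covered 3200 bp, of median length 300 bp and median rank 12212. A peak between 2 kb upstream and 1 kb downstream of the start was found at 3 genes instead of 1. Reading coordinates as counted from 0, also chosen after seeing the data, moved none of the 3 counts tried. No paired analysis was possible because the list holds no value for a single sample, and for the same reason no replicate could be left out. The fold change per peak that the study describes was not used here, and a gene without a peak may hold binding below the threshold of the peak caller.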
